A study of Danio rerio with 14 samples.

Results

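Larvae raised in wastewater effluent at 0.5x strength were compared with larvae raised in solvent alone, across all genes of a 1-colour microarray. The comparison used 9 of the 14 arrays of the study, 5 of the 0.5x group and 4 of the control group, chosen by their labels and not by any measured value. All larvae were wild-type zebrafish of the AB strain. Exposure began at 3 h after fertilisation, and whole larvae were taken at an age of 5 days. The 0.5x group was kept in E3, a saline used to rear zebrafish embryos, with the reconstituted effluent of a Tucson wastewater plant at 0.5 of its original strength and at most 0.05% DMSO. The control group was kept in E3 with 0.05% DMSO, so the solvent was common to both groups, and the medium of every well was replaced every 24 h. Each array holds the pooled larvae of 1 well stocked with 25 to 30 embryos. Replicates are therefore wells. The fit over all 9 arrays has no term for slide or day of scanning. Its p-values therefore measure the spread between wells together with any difference between slides and scan days. The remaining 5 arrays, from larvae in effluent at its original strength (1x), are used only where the concentrations are set side by side.

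Treated municipal effluent carries hormones, drugs and other organic compounds that act on nuclear receptors. Glucocorticoids bind a receptor that switches on genes for glucose production, muscle breakdown and restraint of inflammation, and some clock genes are among its targets. Planar aromatic compounds act through the aryl hydrocarbon receptor (AhR), which induces cytochrome P450 genes. Estrogens raise vitellogenin in liver and aromatase in the brain.

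Signals below are log2 intensities relative to the 75th percentile of their array, and a difference is the mean of the 0.5x arrays minus the mean of the control arrays, with its standard error from limma. The median processed signal was 131 to 193 on the control arrays and 136 to 254 on the 0.5x arrays. Between 85.4% and 89.4% of probes were well above background on each of the 9 arrays. Markers of liver, pancreas, gut, muscle, eye, brain, skin, blood and cartilage were measured for 23 of 25 chosen genes, and all 23 were above background on all 9 arrays. Arrays correlated at 0.952 to 0.996 over the kept probes. Control replicates 1 and 2 stood apart from the other 7 arrays: on the first principal component, which held 54.1% of the variance, they lay at -112 and -78.4, against 3.83 to 39.5 for the rest. Per the file headers, both were scanned on day 1 together with 0.5x replicate 1, and control replicates 3 and 4 were scanned on day 2 with 0.5x replicates 2 to 5. Differences within scan day 2 (2 control and 4 0.5x arrays) are therefore given beside those over all 9 arrays. On the second component (17.8%), 0.5x replicate 1 lay at -73.9 and the other 8 arrays between -17.9 and 39.6.

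Larvae at 0.5x had higher signals of some glucocorticoid targets (7 of 25 measured) and of some clock and melatonin genes (8 of 41, with 2 lower), per1b and nr1d1 among them. Signals were also higher for some enzymes of cholesterol synthesis (10 of 26) and a few genes of fasting (5 of 29, with 1 lower). They had lower signals of single immune genes such as tnfa, of the jacalin-like lectin genes jac10 and jac11 and of the collagen chaperone gene serpinh1b. Most members of each of these lists did not pass the test. At an adjusted p below 0.05, 1199 of 37868 probes differed (3.17%), 549 higher (1.45%) and 650 lower (1.72%), and 9694 had an unadjusted p below 0.05. Counted as genes, with 1 probe each, 376 of 12656 were called (2.97%): 215 rose (1.70%) and 161 fell (1.27%), 99 and 33 of them at least 2-fold. For 11.0% of all genes, called or not, no array of one group fell in the range of the other. This held for 371 of the 376 called genes, so for a called gene it adds little to the test. The split of the called probes differed with the scaling and with the fit. The median difference over all probes was -0.10. Of the called probes 45.8% were higher, but 66.0% after median centring, 60.1% after quantile normalization and 57.1% after normexp background correction. The share moved the other way in other settings. It was 33.3% in the matrix of log2 values deposited by the authors, 35.1% with array weights and 38.5% with all 14 arrays in the fit. In whole larvae, fewer cells of a type and less RNA per cell cannot be told apart.

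The count of called probes depended on single arrays. It was 579 without control replicate 1, 349 without control replicate 2 and 4659 without control replicate 4, and 450, 423, 482 and 674 without 0.5x replicates 2, 3, 4 and 5. It was 685 with slide as a block, in which control replicate 1 shares its slide with no 0.5x array and 8 arrays carry the difference. Within scan day 2 it was 660 (418 higher, 242 lower), and without control replicates 1 and 2 it was 336 (238 higher, 98 lower). The difference itself differed between the scan days for 4350 probes, with 1 0.5x array on day 1. Of the 376 genes called over all arrays, 140 (37.2%) were also called within scan day 2, which is 65.1% of the 215 called there (1.70% of genes). Over all genes, 201 were called with slide as a block (1.59%) and 113 without control replicates 1 and 2 (0.893%). Counts on a list in those fits stand beside these lower shares. With the same sign, 123 genes passed over all arrays, within scan day 2 and with slide as a block (87 higher, 36 lower), and 109 passed whichever single array was left out (77 higher, 32 lower). Of the 90 called genes that are named here (bnip3 not counted), 47 passed both within scan day 2 and with slide as a block. The call was lost within scan day 2 for 41 and with slide as a block for 32, and 30 of these were lost in both. The closing section lists these genes, and the loss is not repeated at every gene below. The calls of klf9, fkbp5, pfkfb4b, ucp3, ddit4, per1b, nr1d1, cyp51 and serpinh1b passed over all arrays, within scan day 2, with slide as a block and whichever single array was left out.

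**Figure D1:**
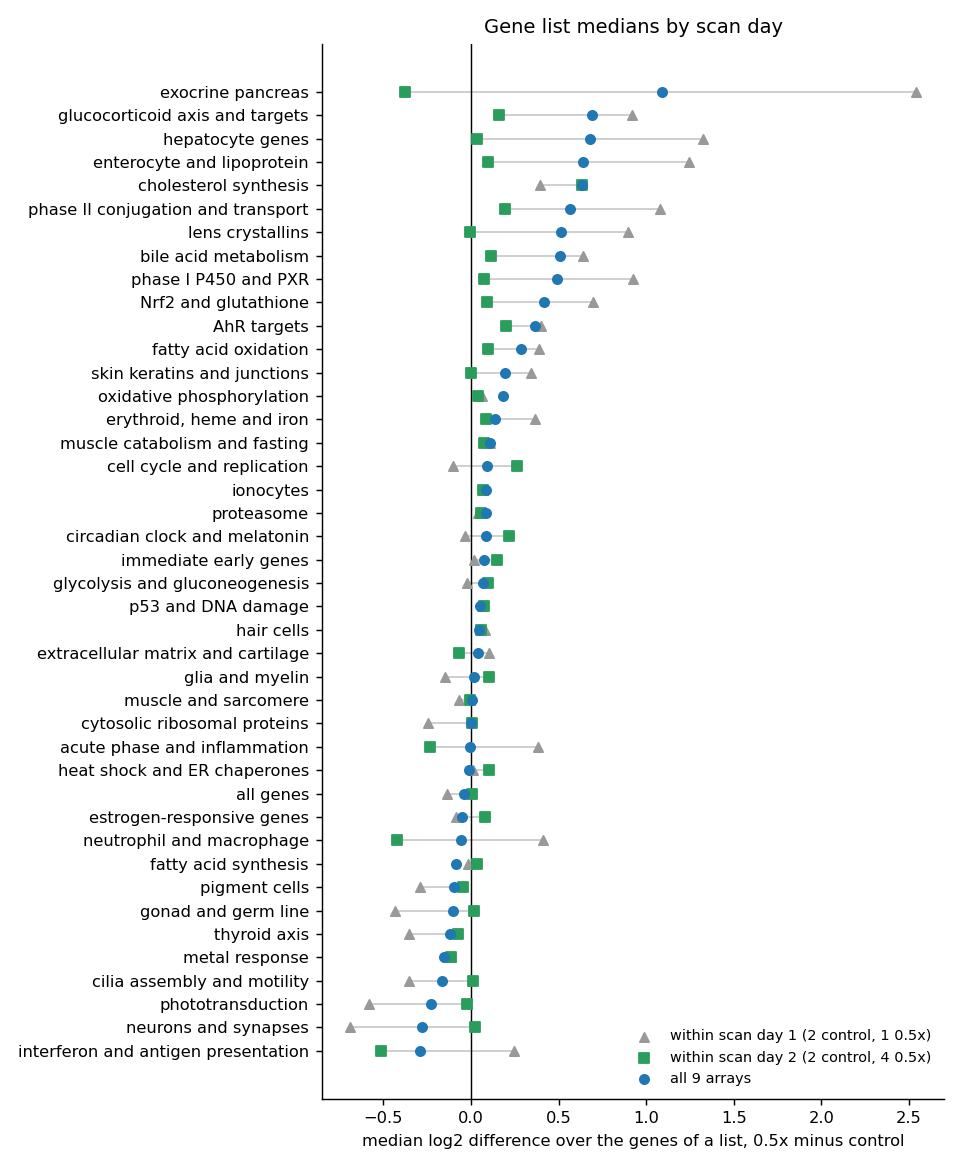
Median log2 difference between 0.5x and control larvae over the genes of each list (x axis), with lists on the y axis. Circles give all 9 arrays, squares scan day 2 and triangles scan day 1. The exocrine pancreas list ran from 2.54 on day 1 to -0.37 on day 2, and the cholesterol synthesis list was at 0.39 on day 1 and 0.63 on day 2.

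Several targets of the glucocorticoid receptor rose. Of 25 genes measured from a list of the axis and its targets, 7 rose and 0 fell, against 1.70% and 1.27% of all genes. The median difference was 0.69, against -0.04 over all genes. Within scan day 2 the list's median was 0.16 and 6 of its genes rose. Without control replicates 1 and 2 the median was 0.22 and 5 rose. Over all genes, those fits called 1.70% and 0.893%.

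The transcription factor gene klf9, a direct target of the receptor, had log2 signals of -1.07, -1.48, -0.95 and -1.02 on the control arrays and 1.11, 1.17, 0.97, 1.27 and 1.22 on the 0.5x arrays. Every 0.5x array lay above every control array, on both scan days. The rise was 4.84-fold (difference 2.28 ± 0.13, adjusted p = 5.84e-05), and held on each day (2.38 on day 1, 2.14 on day 2). The gene fkbp5, whose protein is a co-chaperone that dampens the receptor, read -0.78, -0.44, -0.76 and -1.30 in controls and 2.07, 0.81, 0.97, 1.32 and 0.75 at 0.5x. The groups did not overlap, and 0.5x replicate 1 was the highest. fkbp5 rose 4.02-fold (2.01 ± 0.27, adjusted p = 0.00574, and 2.00 within scan day 2).

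Other targets rose less steeply. The gene tsc22d3, which encodes the anti-inflammatory protein GILZ, rose by 1.21 ± 0.15 (adjusted p = 0.00308). The kinase gene sgk1 rose by 1.05 ± 0.12 (adjusted p = 0.00219), with controls at 2.63 to 3.02 and 0.5x arrays at 3.74 to 3.91. The gene hsd11b2, whose enzyme inactivates cortisol, rose by 1.09 ± 0.17 (adjusted p = 0.0101), and within scan day 2 its difference was 0.82 (adjusted p = 0.0657). These genes had arrays in separate ranges in both groups. The glucocorticoid receptor gene nr3c1 itself did not pass the test, with a difference of -0.26 ± 0.19 (adjusted p = 0.387).

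**Figure D2:**
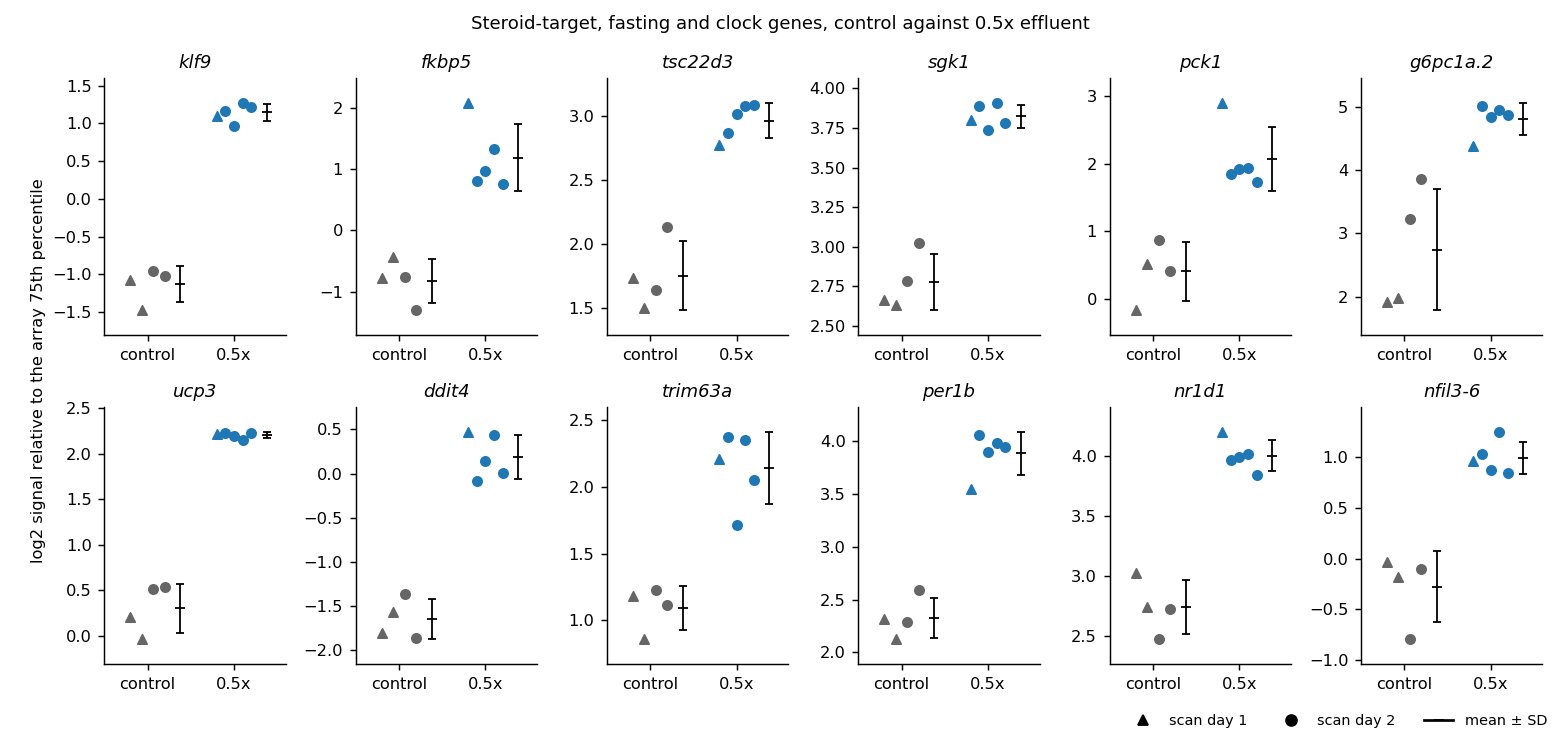
Log2 signal relative to the array's 75th percentile (y axes, a different range in each panel) for 12 genes in 4 control and 5 0.5x arrays, with the mean ± SD beside each group. Triangles mark scan day 1 and circles scan day 2. The groups do not overlap in any of the 12 panels, and in g6pc1a.2 both controls of day 1 lie below both controls of day 2. All 12 genes were called, and 371 of the 376 called genes do not overlap.

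Some genes that act in fasting rose as well. On a list of muscle catabolism and fasting, 5 of 29 genes rose and 1 fell (median 0.11). The share called was 20.7%, against 2.97% of all genes. The fall was of bnip3, by 0.75 on the log2 scale (adjusted p = 0.015, and -0.59 within scan day 2). It also passed with slide as a block (adjusted p = 0.039), and was lost in 2 of the fits that left 1 array out. Within scan day 2, 2 rose and 1 fell, and without control replicates 1 and 2, 1 rose and 0 fell. Over all genes, those fits called 1.70% and 0.893%. On a list of glycolysis and gluconeogenesis 4 of 46 rose and 0 fell (median 0.07), 3 within scan day 2 and 2 without control replicates 1 and 2. On one of fatty acid oxidation 3 of 38 rose and 0 fell (median 0.28), again 3 within scan day 2 and 1 without those controls. The shares called over all arrays were 8.70% for glycolysis and gluconeogenesis and 7.89% for fatty acid oxidation.

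The gene ucp3, a mitochondrial carrier of muscle that is induced when fatty acids are burned, read 0.20, -0.04, 0.51 and 0.53 in controls and 2.22, 2.23, 2.20, 2.15 and 2.23 at 0.5x. The 0.5x arrays lay close together and far above the controls. The rise was 3.74-fold (1.90 ± 0.14, adjusted p = 0.00016, and 1.68 within scan day 2). The gene ddit4, whose protein restrains the growth kinase mTORC1, read -1.81, -1.57, -1.36 and -1.86 in controls and 0.47, -0.09, 0.14, 0.43 and 0.01 at 0.5x. It rose 3.58-fold (1.84 ± 0.16, adjusted p = 0.001), and by 1.73 within scan day 2.

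Muscle ubiquitin ligase genes and enzymes of fuel choice were among the rises. The gene trim63a, which encodes the ligase MuRF1 that tags muscle proteins for breakdown, rose by 1.05 ± 0.16 (adjusted p = 0.00837), with an adjusted p of 0.0539 within scan day 2. Its paralog trim63b rose by 0.58 ± 0.11 (adjusted p = 0.025), a call that was lost without any one of control replicates 1 and 2 and 0.5x replicates 2, 4 and 5 (adjusted p up to 0.095). The gene pdk2b, whose kinase keeps pyruvate out of the citric acid cycle, rose by 0.87 ± 0.13 (adjusted p = 0.00911), and the peroxisomal oxidase gene acox3 by 0.98 ± 0.16 (adjusted p = 0.0108). The transcription factor gene cebpd rose 2.00-fold (adjusted p = 0.017), and without control replicate 2 its adjusted p was 0.061. It did not pass within scan day 2 (adjusted p = 0.0746) or with slide as a block (adjusted p = 0.0671).

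The glucose production genes pck1 and g6pc1a.2 rose, with a wide range of levels among controls. The gene pck1, which encodes the first step of gluconeogenesis from citric acid cycle carbon, read -0.17, 0.51, 0.88 and 0.41 in controls and 2.89, 1.85, 1.92, 1.94 and 1.73 at 0.5x. The groups did not overlap, and 0.5x replicate 1 stood above the other 0.5x arrays. The gene pck1 rose by 1.66 ± 0.26 (adjusted p = 0.0107), by 2.72 within day 1 and 1.21 within day 2. Without control replicates 1 and 2 its difference was 1.42 (adjusted p = 0.0757). The glucose-6-phosphatase gene g6pc1a.2 read 1.91, 1.98, 3.23 and 3.86 in controls and 4.38, 5.00, 4.83, 4.95 and 4.86 at 0.5x, with the controls of scan day 1 well below those of day 2. Its rise of 2.06 ± 0.37 (adjusted p = 0.0179) was 1.37 within scan day 2 (adjusted p = 0.0132), and it no longer passed when control replicate 2, 0.5x replicate 2 or 0.5x replicate 3 was left out (adjusted p up to 0.0592). The gene pfkfb4b, whose enzyme sets the level of the glycolytic signal fructose 2,6-bisphosphate, rose by 1.65 ± 0.15 (adjusted p = 0.0011). The gene fgf19, a hormone of the gut that limits bile acid synthesis in mammals, rose by 1.67 ± 0.25 (adjusted p = 0.0086), and by 1.21 within scan day 2.

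The circadian clock list moved in both directions. Of 41 clock and melatonin genes, 8 rose and 2 fell (24.4% called, against 2.97% of all genes, median 0.08). Within scan day 2, 9 rose and 1 fell (median 0.22), and without control replicates 1 and 2, 6 rose and 0 fell. Over all genes, those fits called 1.70% and 0.893%. The rises named here were of genes encoding repressors of the clock loop. They are a choice from the 8, and the other rises of the list are not named. How many of the 8 encode repressors is not given. The period gene per1b read 2.31, 2.12, 2.29 and 2.59 in controls and 3.54, 4.06, 3.89, 3.98 and 3.94 at 0.5x, and rose 2.94-fold (1.55 ± 0.14, adjusted p = 0.0011). The groups lay apart, with 0.5x replicate 1 the lowest of its group.

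The nuclear receptor gene nr1d1 rose by 1.26 ± 0.13 (adjusted p = 0.002). The transcription factor genes bhlhe40 and nfil3-6 rose by 1.26 ± 0.14 (adjusted p = 0.00219) and 1.27 ± 0.17 (adjusted p = 0.00531), and the cryptochrome gene cry1b by 1.22 ± 0.20 (adjusted p = 0.0109). Each of these 4 was also called within scan day 2, with differences of 1.30 to 1.45. The melatonin enzyme gene aanat1 fell by 0.82 on the log2 scale (adjusted p = 0.0132), and without control replicate 2 its adjusted p was 0.0533. The cryptochrome gene cry3b fell by 1.21 (adjusted p = 0.0245), with overlapping groups. Its call was lost without any one of control replicates 1 and 2 and 0.5x replicates 2, 3 and 4 (adjusted p up to 0.0864). The pineal enzyme gene aanat2 (-0.54 ± 0.20, adjusted p = 0.131) and the period gene per1a (-0.13 ± 0.24, adjusted p = 0.737) did not pass. The sources used here do not give the time of day at which each well was sampled.

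Several enzymes of cholesterol synthesis rose. Of 26 genes, 10 rose (38.5% called, against 2.97% of all genes) and 0 fell, the others did not pass, and the list's median was 0.64. The medians were 0.39 for scan day 1 alone and 0.63 within scan day 2, where 6 rose, and with slide as a block 6 rose as well. Without control replicates 1 and 2 the median was 0.59 and 5 rose. Over all genes, 1.70% were called within scan day 2, 1.59% with slide as a block and 0.893% without those controls. Summarised by array, the list's mean lay 0.32 to 0.44 below the average of the 9 arrays in every control and 0.14 to 0.50 above it in every 0.5x array.

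The sterol demethylase gene cyp51, which removes a methyl group from lanosterol, read -1.50, -1.89, -1.27 and -1.33 in controls and 0.69, 0.59, 0.78, 0.55 and 0.89 at 0.5x. No 0.5x array came near the controls. It rose 4.59-fold (2.20 ± 0.15, adjusted p = 0.000102), and by 2.00 within scan day 2, and 3 of its 4 kept probes were higher at 0.5x. Later in the pathway, msmo1 rose by 1.53 ± 0.18 (adjusted p = 0.00239) and nsdhl by 1.13 ± 0.14 (adjusted p = 0.00441), both sterol demethylation enzymes. The gene lss, which closes the sterol rings, rose by 1.32 ± 0.21 (adjusted p = 0.0106). These 4 calls were kept whichever single array was left out. With slide as a block and within scan day 2, cyp51, msmo1 and nsdhl passed, and lss did not (adjusted p = 0.0561 and 0.0642).

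The rate-limiting enzyme gene hmgcra read -0.33, -0.71, -1.25 and -1.08 in controls and 0.18, 0.29, 0.62, -0.05 and 0.51 at 0.5x, close together but without overlap. It rose by 1.15 ± 0.21 (adjusted p = 0.0176), and without 0.5x replicate 3 its adjusted p was 0.0526. The squalene epoxidase gene sqlea rose by 1.38 ± 0.25 (adjusted p = 0.0202) and ebp by 1.17 (adjusted p = 0.0189), and both fell short of the threshold when control replicate 2 or 0.5x replicate 3 was left out (adjusted p up to 0.0693). The later enzymes tm7sf2, sc5d and hsd17b7 rose by 0.73, 0.77 and 0.70. Their calls were lost without control replicate 2, without 0.5x replicate 2 or 3 and, for sc5d and hsd17b7, without control replicate 1 or 0.5x replicate 4 or 5 (hsd17b7 also without 0.5x replicate 1), with an adjusted p of up to 0.125. The synthase gene hmgcs1 (0.73 ± 0.18, adjusted p = 0.0556), the LDL receptor gene ldlra (0.57 ± 0.19, adjusted p = 0.113) and the sterol sensor gene insig1 (0.56 ± 0.23, adjusted p = 0.166) did not pass.

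**Figure D3:**
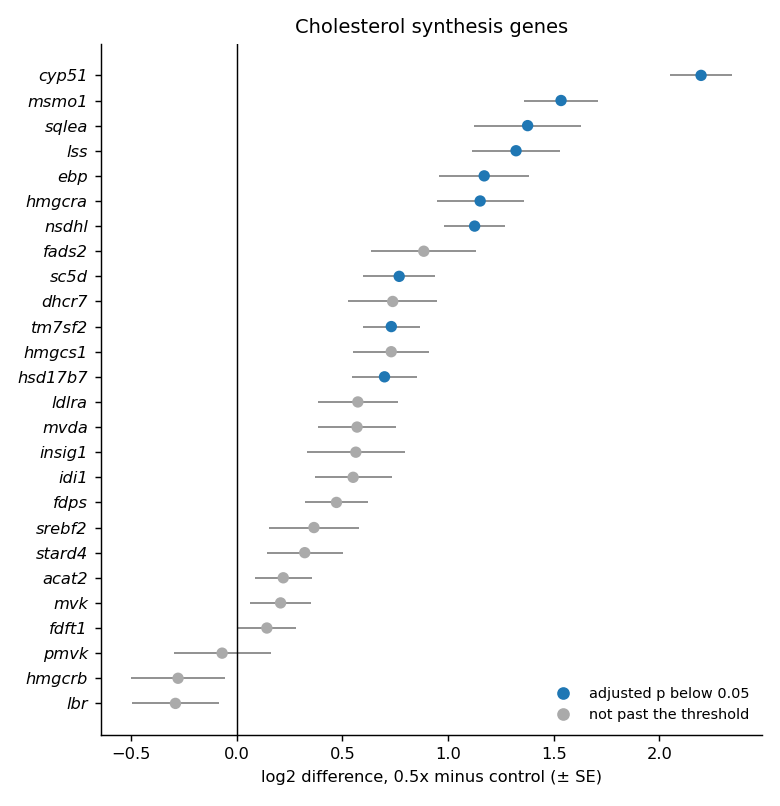
Log2 difference, 0.5x minus control, with its standard error (x axis) for each of the 26 measured genes of cholesterol synthesis (y axis). The 10 genes past an adjusted p of 0.05 are in blue, all to the right of 0, from hsd17b7 at 0.70 to cyp51 at 2.20.

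Single genes of chemical defence passed the test. The share called was 18.8% of the AhR list and 7.32% of phase I genes. It was 11.4% of conjugation and transport genes and 7.5% of Nrf2 and glutathione genes, against 2.97% of all genes. The AhR list holds targets of the receptor and also its partner arnt, which was the 1 gene that fell. Of its 16 genes, 2 rose and 1 fell (median 0.36). Within scan day 2 and with slide as a block 1 rose and 0 fell. The repressor gene ahrra, which is induced by the receptor and feeds back on it, read -2.11, -2.03, -2.42 and -2.46 in controls and -0.85, -1.07, -1.53, -1.31 and -1.31 at 0.5x. The groups did not overlap on either scan day, and it rose by 1.05 ± 0.16 (adjusted p = 0.0097). The P450 gene cyp1c1 rose by 1.01 ± 0.23 (adjusted p = 0.0443), a call lost without any one array but control replicate 4 (adjusted p up to 0.139). The gene arnt, the partner of the receptor on DNA, fell by 0.86 (adjusted p = 0.0159), and without control replicate 2 its adjusted p was 0.057. It did not pass within scan day 2 (adjusted p = 0.0776) or with slide as a block (adjusted p = 0.0606).

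The P450 gene cyp1a, the usual marker of the receptor, read 0.25, 0.70, 2.26 and 2.40 in controls and 2.60, 2.82, 2.77, 2.68 and 2.68 at 0.5x. Both controls of scan day 1 were low, and those of day 2 lay just under the 0.5x arrays. The difference of 1.31 ± 0.40 (adjusted p = 0.0948) did not pass, and it was 2.13 within day 1 and 0.41 within day 2 (adjusted p = 0.115). The related gene cyp1b1 did not pass either (0.45 ± 0.13, adjusted p = 0.0792).

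Of 41 genes of phase I metabolism, 3 rose and 0 fell (median 0.49, and 0.07 within scan day 2). The P450 gene cyp2x9 rose by 1.95 ± 0.45 (adjusted p = 0.0452) and by 0.91 within scan day 2, and its call was lost without any one array but control replicates 3 and 4 (adjusted p up to 0.138). The gene nr1i2, which encodes the xenobiotic sensor PXR, rose by 0.78 ± 0.15 (adjusted p = 0.0223), a call lost without any one of control replicates 1 and 2 and 0.5x replicates 2 to 5 (adjusted p up to 0.0827). The intestinal P450 gene cyp3a65 had a difference of 1.85 ± 0.50 (adjusted p = 0.0716). It was 2.79 within day 1 and 0.76 within day 2.

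Of 35 genes of conjugation and transport, 3 rose and 1 fell (median 0.56, and 0.20 within scan day 2). All 3 rises were of glucuronosyltransferase genes of the ugt5 family, which attach a sugar acid to compounds bound for excretion. The steadiest was ugt5a1, at -5.05, -4.76, -4.67 and -4.50 in controls and -3.54, -3.33, -3.49, -3.43 and -3.18 at 0.5x (1.35 ± 0.14, adjusted p = 0.00176, and 1.23 within scan day 2). The groups were apart, and the call was kept whichever array was left out. The family members ugt5a2 and ugt5a4 each rose by 1.67 ± 0.29 (adjusted p = 0.0163 and 0.0146), and without control replicate 2 their adjusted p was 0.0533 and 0.0552. With slide as a block neither passed (adjusted p = 0.058 and 0.0643), and within scan day 2 ugt5a2 did not pass (adjusted p = 0.0509). The ugt5 genes resemble each other, and probes for one could bind transcripts of another.

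Of 40 genes of the oxidative stress factor Nrf2 and of glutathione, 3 rose and 0 fell (median 0.41, and 0.09 within scan day 2, where 0 were called). The quinone reductase gene nqo1 rose by 1.02 ± 0.21 (adjusted p = 0.0292), with 0.60 within scan day 2, and mgst1.1, a membrane glutathione transferase gene, by 0.97 ± 0.21 (adjusted p = 0.0353). The call of nqo1 was lost without any one of control replicates 1 and 2 and 0.5x replicates 1 to 4 (adjusted p up to 0.0979), and that of mgst1.1 without any one array but control replicate 4 (adjusted p up to 0.116). The transferase gene gstp1.1 read -4.51, -3.39, 0.41 and 0.69 in controls and 1.41, 0.34, 1.29, 0.94 and 0.45 at 0.5x. Its difference was 5.36 on scan day 1 alone and 0.21 on day 2 alone, and did not pass over all arrays (2.58 ± 0.97, adjusted p = 0.14). The heme oxygenase gene hmox1a (1.13 ± 0.35, adjusted p = 0.101) did not pass. The cyclotransferase gene ggact.2 was above background on no control array (0 of 4) and on 4 of the 5 0.5x arrays. It did not pass (adjusted p = 0.102), and the groups overlapped. It read -8.40 in 0.5x replicate 4, below every control (-8.22 to -6.53).

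Lists of liver, gut, pancreas and lens had high medians and few calls. The median was 1.09 for 28 exocrine pancreas genes with 0 called, 0.68 for 57 hepatocyte genes with 2 higher and 0 lower, 0.64 for 42 enterocyte and lipoprotein genes with 2 higher and 0 lower, and 0.51 for 41 lens crystallin genes with 0 called. The share called was 3.51% of the hepatocyte genes and 4.76% of the enterocyte and lipoprotein genes, against 2.97% of all genes. At an unadjusted p below 0.05, 3 pancreas genes and 8 lens genes were higher, and 0 of either list were lower. The same lists were low in control replicates 1 and 2: the mean of the pancreas list lay 2.41 and 1.67 below the average of the 9 arrays there, and that of the hepatocyte list 1.43 and 0.83 below. In control replicates 3 and 4 the pancreas list lay at 0.60 and 1.1 and the hepatocyte list at 0.19 and 0.49, among the values of the 0.5x arrays. The medians within scan day 2 were -0.37, 0.03, 0.10 and -0.01.

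The trypsinogen gene prss1, a marker of exocrine pancreas, read 5.65, 6.52, 8.06 and 8.46 in controls and 7.89, 8.23, 7.85, 8.15 and 8.04 at 0.5x (0.86 ± 0.48, adjusted p = 0.276). The fatty acid binding protein genes of liver, fabp10a (0.47 ± 0.27, adjusted p = 0.282), and gut, fabp2 (1.03 ± 0.35, adjusted p = 0.119), did not pass. The bile acid synthesis gene cyp7a1 had a difference of 1.84 ± 0.46 (adjusted p = 0.0604), 3.43 within day 1 and 0.68 within day 2. The tryptophan dioxygenase genes tdo2a and tdo2b, liver enzymes that glucocorticoids raise in mammals, rose 1.72-fold (adjusted p = 0.016) and 2.15-fold (adjusted p = 0.0443). The call of tdo2a did not survive the loss of control replicate 2 or 0.5x replicate 3 (adjusted p up to 0.0636), and that of tdo2b without any one array but control replicate 4 (adjusted p up to 0.119). Neither passed within scan day 2 (adjusted p = 0.0746 and 0.17) or with slide as a block (adjusted p = 0.0583 and 0.113). The gene alas1, for the first enzyme of heme synthesis, rose by 1.06 ± 0.24 (adjusted p = 0.0409) and plac8.1 by 1.67 ± 0.33 (adjusted p = 0.0257), and both calls were lost without any one array but control replicates 3 and 4 (adjusted p up to 0.129). The levels of the pancreas, liver, gut and lens lists moved with the detoxification genes across the controls, and their part in those results was not tested.

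**Figure D4:**
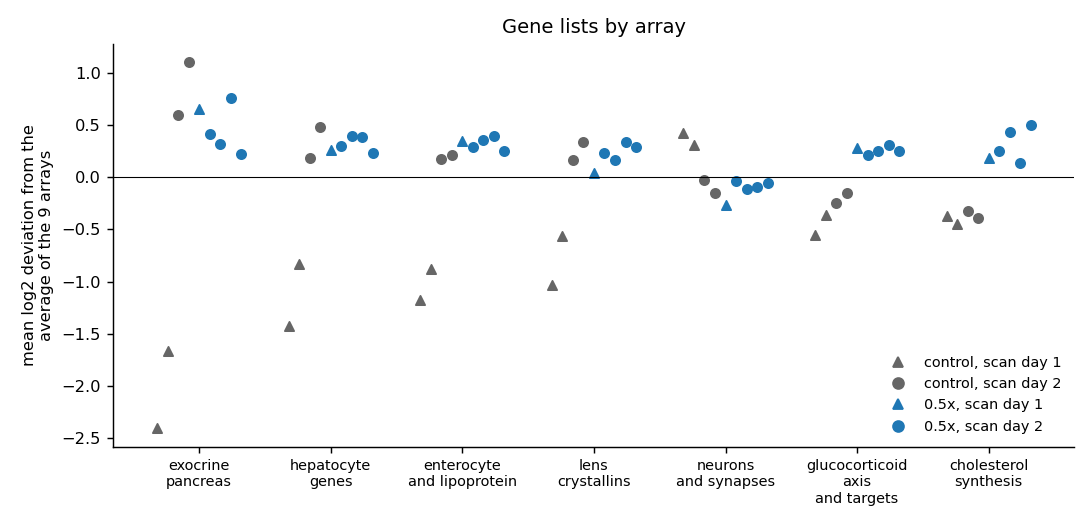
Mean log2 deviation of a gene list from the average of the 9 arrays (y axis), 1 point per array, for 7 lists (x axis). Triangles mark scan day 1 and circles scan day 2, with control in grey and 0.5x in blue. Both grey triangles lie far below the rest for pancreas (-2.41 and -1.67) and liver (-1.43 and -0.83), while all 4 controls lie at -0.44 to -0.32 for cholesterol synthesis.

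Of 13 estrogen-responsive genes, 1 rose and 0 fell (7.69% called, against 2.97% of all genes, median -0.05). It was esr2b, an estrogen receptor gene, at -4.18, -3.87, -3.49 and -3.84 in controls and -2.85, -2.72, -2.39, -2.32 and -2.61 at 0.5x, in separate ranges (1.27 ± 0.16, adjusted p = 0.00449, and 1.16 within scan day 2). The brain aromatase gene cyp19a1b, the common marker of estrogen exposure in zebrafish larvae, read -4.28, -4.38, -4.76 and -4.58 in controls and -4.49, -4.50, -4.51, -4.92 and -4.74 at 0.5x. The groups overlapped (-0.13 ± 0.14, adjusted p = 0.559). The yolk protein genes vtg7 (0.15 ± 0.35, adjusted p = 0.797) and vtg5 (-0.15 ± 0.19, adjusted p = 0.625) and the receptor gene esr1 (-0.57 ± 0.15, adjusted p = 0.0688) did not pass.

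Of 25 genes of gonad and germ line, 1 rose and 2 fell (12% called, against 2.97% of all genes, median -0.10). The testis factor gene dmrt1 read -3.86, -4.30, -4.06 and -4.24 in controls and -1.67, -1.86, -3.23, -2.93 and -2.79 at 0.5x, spread widely among the exposed wells yet above all controls. It rose 3.07-fold (1.62 ± 0.31, adjusted p = 0.0227), and it missed the threshold when control replicate 2 or 0.5x replicate 2 was left out (adjusted p up to 0.0791). The cartilage and testis factor genes sox9a and sox9b fell by 0.93 (adjusted p = 0.0247) and 0.85 (adjusted p = 0.00599) on the log2 scale. When control replicate 2, 0.5x replicate 3 or 0.5x replicate 4 was left out, sox9a missed the threshold (adjusted p up to 0.0804). It also missed it within scan day 2 (adjusted p = 0.0884) and with slide as a block (adjusted p = 0.0595). On the thyroid axis list 0 of 11 genes passed by limma (5 had an unadjusted p below 0.05), among them the hormone subunit gene tshba (1.18 ± 0.44, adjusted p = 0.138) and the deiodinase gene dio1 (0.43 ± 0.22, adjusted p = 0.238).

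Single cytokine and antiviral genes fell, and other genes of the same lists rose. Of 35 genes of acute phase and inflammation, 4 rose and 4 fell (median 0.00). Of 35 interferon and antigen presentation genes 1 rose and 3 fell (median -0.29), and of 32 neutrophil and macrophage genes 0 rose and 1 fell (median -0.06). The shares called on these lists were 22.9%, 11.4% and 3.13%, against 2.97% of all genes. The medians turned with the scan day: they were 0.38, 0.24 and 0.41 within day 1 and -0.24, -0.51 and -0.42 within day 2, where 3, 3 and 4 genes were lower and 0 higher. With slide as a block 3, 0 and 1 genes were lower, and 1, 1 and 0 higher. Without control replicates 1 and 2, 2, 1 and 0 genes were lower and 0 higher.

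The cytokine gene tnfa read -4.27, -4.82, -4.01 and -4.71 in controls and -5.81, -5.78, -5.53, -5.39 and -5.39 at 0.5x, without overlap, and fell by 1.13 on the log2 scale (SE 0.18, adjusted p = 0.0119, and -1.16 within scan day 2). Its relative tnfb was lower 2.29-fold (adjusted p = 0.0248), a call that needed each of control replicates 2 and 3 and 0.5x replicates 4 and 5 (adjusted p up to 0.0868). The gene acod1, which makes the antibacterial metabolite itaconate in macrophages, fell by 1.49 (adjusted p = 0.00954), and the lectin receptor gene illr4 by 1.07 (adjusted p = 0.0089). Neither passed within scan day 2 (adjusted p = 0.0807 and 0.0699), and acod1 did not pass with slide as a block (adjusted p = 0.0516). The viral RNA sensor gene dhx58 fell by 1.68 (SE 0.32, adjusted p = 0.0235). It did not pass within scan day 2 (-1.95, adjusted p = 0.0549) or with slide as a block (adjusted p = 0.0667). It was also not called without control replicate 2 or 0.5x replicates 2, 3 or 4 (adjusted p up to 0.0761). The interferon factor gene irf1b and the peptide loading gene tapbp.2 fell by 1.49 (adjusted p = 0.046) and 1.23 (adjusted p = 0.0498), and both calls were lost without any one array but control replicate 4 and 0.5x replicate 1 (adjusted p up to 0.122). Neither gene passed within scan day 2 or with slide as a block. The NF-kB subunit gene rela fell by 0.78 (adjusted p = 0.0364), a call lost without any one of control replicates 1, 2 and 3 and 0.5x replicates 2, 3 and 5 (adjusted p up to 0.112).

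Some immune genes rose. The gene socs1a, an inhibitor of cytokine signalling, rose by 1.26 ± 0.21 (adjusted p = 0.0123), and its adjusted p within scan day 2 was 0.0506. The antigen presentation gene mhc1uba rose by 0.99 ± 0.18 (adjusted p = 0.0192), and its call was lost without 0.5x replicate 2 or 3 (adjusted p up to 0.0595). The interferon-induced gene isg15 read 1.01 in 0.5x replicate 1 and -1.81 to -1.04 in the other 0.5x arrays, against -1.48 ± 0.36 (SD, n = 4) in controls (0.57 ± 0.48, adjusted p = 0.455). The neutrophil peroxidase gene mpx did not pass over all arrays (-0.01 ± 0.27, adjusted p = 0.982). Within scan day 2 its difference was -0.59 (adjusted p = 0.0413), and within scan day 1 it was 1.08.

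Among called genes that were well above background on every array and whose groups did not overlap, the largest falls were of jac10, dhx58, atoh1b, zgc:113625, serpinh1b, zgc:193593, acod1, irf1b, tfr2, jac11, zgc:165604 and klhl5, in that order. The gene jac10, for a jacalin-like lectin, read -1.68, -1.85, -1.37 and -1.42 in controls and -3.37, -3.42, -3.09, -3.67 and -2.76 at 0.5x, apart on both scan days. It fell by 1.68 (SE 0.19, adjusted p = 0.00221), and within scan day 2 the difference was -1.84. Its relative jac11 fell by 1.47 (SE 0.24, adjusted p = 0.0123, and -1.85 within scan day 2). The gene serpinh1b, whose protein is the chaperone of collagen in the endoplasmic reticulum, read 2.13, 2.09, 1.53 and 1.92 in controls and 0.47, 0.47, 0.48, 0.11 and 0.38 at 0.5x. No array of one group came near the other (-1.54 ± 0.15, adjusted p = 0.0015, and -1.37 within scan day 2), and all 3 kept probes of the gene were lower.

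The transcription factor gene atoh1b, needed for hair cells and granule neurons, fell by 1.59 (SE 0.24, adjusted p = 0.00872), and the iron-sensing receptor gene tfr2 by 1.48 (SE 0.20, adjusted p = 0.00603). The gene zgc:193593 fell by 1.53 (adjusted p = 0.00872). The gene zgc:113625 fell by 1.58 and klhl5 by 1.24, and without control replicate 2 their adjusted p was 0.0622 and 0.0533. The gene zgc:165604 fell by 1.36, and missed the threshold when control replicate 2, 0.5x replicate 2 or 0.5x replicate 4 was left out (adjusted p up to 0.07). Of 55 ciliary genes 2 fell and 0 rose, a share of 3.64% that is near the 2.97% of all genes (median -0.16, and 0.01 within scan day 2). The gene ccdc40, needed for the beat of cilia, fell by 1.13 (adjusted p = 0.0107), but did not pass with slide as a block (adjusted p = 0.0526) or within scan day 2 (adjusted p = 0.0729). The gene ift74, for transport along cilia, fell by 0.89 (adjusted p = 0.00439). The cation channel gene trpm1a of pigment and retinal cells fell by 1.17 (adjusted p = 0.0264), a call lost without control replicate 2 or any one 0.5x array (adjusted p up to 0.0914).

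Under the same conditions the largest rises were of si:dkey-286h2.3, klf9, cyp51, g6pc1a.2, ntan1, fkbp5, cyp2x9, ucp3, ddit4, rnf34b, fgf19 and plac8.1. The gene si:dkey-286h2.3 read -4.89, -4.20, -3.03 and -2.81 in controls and -0.70, -0.72, -0.82, -1.26 and -1.12 at 0.5x, with the controls of day 1 the lowest (2.81 ± 0.38, adjusted p = 0.00553, and 1.94 within scan day 2). Of its 3 kept probes 2 were higher. The gene ntan1, for an amidase that feeds proteins into the N-degron pathway, rose by 2.03 ± 0.28 (adjusted p = 0.00599), and the ubiquitin ligase gene rnf34b by 1.83 ± 0.23 (adjusted p = 0.00439). The difference of rnf34b was 0.88 within day 1 and 2.31 within day 2. The ammonia transporter gene rhcga of ionocytes rose 2.82-fold (adjusted p = 0.00837), and the parathyroid hormone gene pth1b by 0.69 (adjusted p = 0.0445), a call lost without any one array but control replicates 3 and 4 (adjusted p up to 0.136).

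Single stress genes were called. The share was 6.38% of heat shock and endoplasmic reticulum genes, 5.71% of p53 and DNA damage genes and 14.3% of immediate early genes. Over all genes it was 2.97%. Of 47 heat shock and endoplasmic reticulum genes 2 rose and 1 fell, the fall being serpinh1b (median -0.01). The gene chac1, which degrades glutathione and is induced by unfolded proteins, rose by 1.22 ± 0.16 (adjusted p = 0.00439, and 1.02 within scan day 2), while the heat shock gene hsp70l read 0.27 to 0.63 in controls and 0.15 to 0.70 at 0.5x (adjusted p = 0.679). Of 35 p53 and DNA damage genes 2 rose and 0 fell, and the growth arrest gene gadd45ab rose by 1.21 ± 0.14 (adjusted p = 0.00251). Of 42 immediate early genes 5 rose and 1 fell (median 0.07), and without control replicates 1 and 2, 1 rose. The nuclear receptor gene nr4a1 rose by 1.16 ± 0.14 (adjusted p = 0.00349). The genes klf2a, induced by blood flow, and gadd45bb rose 2.26-fold and 2.14-fold, calls lost without any one array but control replicate 4 (klf2a) or without any one of control replicates 1 and 2 and 0.5x replicates 1 to 4 (gadd45bb), with an adjusted p of up to 0.119. The early gene fosab was at 1.31 to 1.60 in controls and 1.32 to 1.87 at 0.5x (0.07 ± 0.13, adjusted p = 0.758).

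In the eye, 58 genes of phototransduction gave 2 rises and 1 fall (median -0.23, and -0.02 within scan day 2). The share called was 5.17%, against 2.97% of all genes. The green opsin gene opn1mw4 passed the background on none of the controls (0 of 4) and on all of the 0.5x arrays (5 of 5), at -8.42 to -7.79 against -5.46 to -4.77, and was at least 1.82-fold higher (adjusted p = 5.84e-05). It belongs to a tandem group of near-identical green opsins, and its probe could bind transcripts of the others. The photoreceptor calcium sensor gene guca1c rose by 0.93 ± 0.13 (adjusted p = 0.00732), the retinoid enzyme gene lrata fell by 0.82 (adjusted p = 0.0062), and both were also called within scan day 2. The rod opsin gene rho did not pass (-0.25 ± 0.14, adjusted p = 0.266). For genes not above background in a whole group, a fold is a lower bound. It sets the mean of the brighter group against a floor for the dimmer group. On each array the floor is the higher of the gene's own signal and the dimmest signal well above background. The adjusted p-values of these genes do not test the bound. They come from differences that include the signals of the group below background, and such genes were kept through the brighter group alone. The Nodal-related gene spaw was at least 1.77-fold higher at 0.5x (adjusted p = 0.0499, groups overlapping). The same calculation gave 1.26 for zgc:171686 (adjusted p = 0.0436) and 1.07 for si:dkey-83f18.10 (adjusted p = 0.015, and 0.085 within scan day 2), both higher at 0.5x. Both were above background on only 4 of the 5 0.5x arrays, so their values are not strict lower bounds. The call of spaw was lost without any one of control replicates 2 and 3 and 0.5x replicates 1, 3, 4 and 5 (adjusted p up to 0.153), and that of zgc:171686 without any one array but control replicate 4 and 0.5x replicate 5 (adjusted p up to 0.103). The egg coat gene zp3a.2 was at least 2.17-fold lower, above background on every control array and on 0 of 5 at 0.5x (adjusted p = 0.0301), and its call was lost without any one of control replicates 1 and 2 and 0.5x replicates 2 to 4 (adjusted p up to 0.102).

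The list of neuron and synapse genes gave no call. Of 66 genes of neurons and synapses 0 passed by limma, and 15 had an unadjusted p below 0.05 and were lower (median -0.28, but 0.02 within scan day 2). The acetylcholinesterase gene ache, which ends transmission at cholinergic synapses, had a difference of -0.72 ± 0.22 (adjusted p = 0.094). Likewise 0 passed of 82 cytosolic ribosomal protein genes, whose medians were 0.00 over all arrays and -0.24 within day 1, of 47 proteasome genes, of 29 glia and myelin genes, of 18 hair cell genes, of 46 skin genes and of 7 metal response genes. At an unadjusted p below 0.05 these 6 lists held 0, 4, 4, 4, 9 and 2 genes. The metallothionein gene mt2 read 3.66 to 4.06 in controls and 3.29 to 3.97 at 0.5x (-0.19 ± 0.15, adjusted p = 0.447).

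To test whether the concentrations differed, the 1x arrays were compared directly with the 0.5x arrays in a fit of all 14 arrays. Of 37868 probes, 1581 differed (4.18%), 649 higher and 932 lower at 1x. These probes had passed the background in the control or 0.5x group, so probes above background only at 1x were not tested. The split into higher and lower is limited by that choice. The count was 3227 when only those 10 arrays entered, and 936 when slide was a block as well. Only slides 2 and 3 hold both concentrations. With slide as a block, the difference therefore rests on 1x replicates 2 to 5 and 0.5x replicates 1 and 2. Scan days were uneven too, with 1x replicates 1 to 3 and 0.5x replicate 1 on day 1. As genes, 208 were higher and 356 lower at 1x (4.46%). The glucocorticoid list held 6 genes lower at 1x than at 0.5x and 0 higher, the clock list 10 lower and 2 higher, and the muscle catabolism and fasting list 8 lower and 0 higher. The cholesterol synthesis list held 1 higher and 0 lower.

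The klf9 signal at 1x was -0.44, 0.18, 0.01, -0.02 and -0.31, between the controls and the 0.5x arrays and overlapping neither. It was lower at 1x than at 0.5x by -1.26 ± 0.13 (adjusted p = 0.000197). The ucp3 signal was 1.17, 1.09, 1.26, 1.02 and 0.78, again in between (-1.14 ± 0.12, adjusted p = 0.000197). That of per1b was 2.70, 2.84, 2.67, 3.11 and 3.03, above the controls and below the 0.5x arrays (-1.01 ± 0.13, adjusted p = 0.000631). With slide as a block these differences between 1x and 0.5x were -1.17, -1.19 and -0.89, all past the threshold.

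Some genes that were called at 0.5x overlapped the controls at 1x. The nfil3-6 signal at 1x was -0.26, -0.39, -0.49, -0.52 and -0.65, within the control range (1x minus 0.5x -1.46 ± 0.14, adjusted p = 9.8e-05). The trim63a signal was 1.22, 1.23, 1.23, 0.89 and 1.12, beside controls at 0.86 to 1.22 (1x minus 0.5x, a log2 signal that dropped by 1.00, SE 0.13, adjusted p = 0.000847). The esr2b signal was -3.53, -3.36, -3.49, -3.70 and -3.51, below every 0.5x array (-0.94 ± 0.14, adjusted p = 0.00154). The collagen chaperone gene serpinh1b went the other way, at 1.58, 1.43, 1.76, 1.37 and 1.18, above every 0.5x array (1.09 ± 0.14, adjusted p = 0.000631). These 4 also passed with slide as a block.

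The direct test also found genes that did not pass at 0.5x and stood apart at 1x. The cyp19a1b signal at 1x was -2.72, -2.32, -3.37, -2.13 and -2.09, above every control and 0.5x array (1x minus 0.5x 2.11 ± 0.21, adjusted p = 0.00011). The vtg7 signal was -2.85, -3.51, -2.96, -4.05 and -3.67, higher than at 0.5x by 1.83 ± 0.33 (adjusted p = 0.00625). The fosab signal was 2.24 to 3.28 on the 5 arrays (mean 2.87 ± 0.47 SD), higher by 1.28 ± 0.19 (adjusted p = 0.00154). The mt2 signal was 2.62, 2.82, 2.58, 2.74 and 2.95, lower by -0.97 ± 0.13 (adjusted p = 0.000997). All 4 passed with slide as a block, at 2.02, 1.22, 1.48 and -0.74. For cyp51 the signal at 1x was 0.75, 0.02, 0.98, 0.19 and 0.85, overlapping the 0.5x arrays (-0.14 ± 0.18, adjusted p = 0.67).

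**Figure D5:**
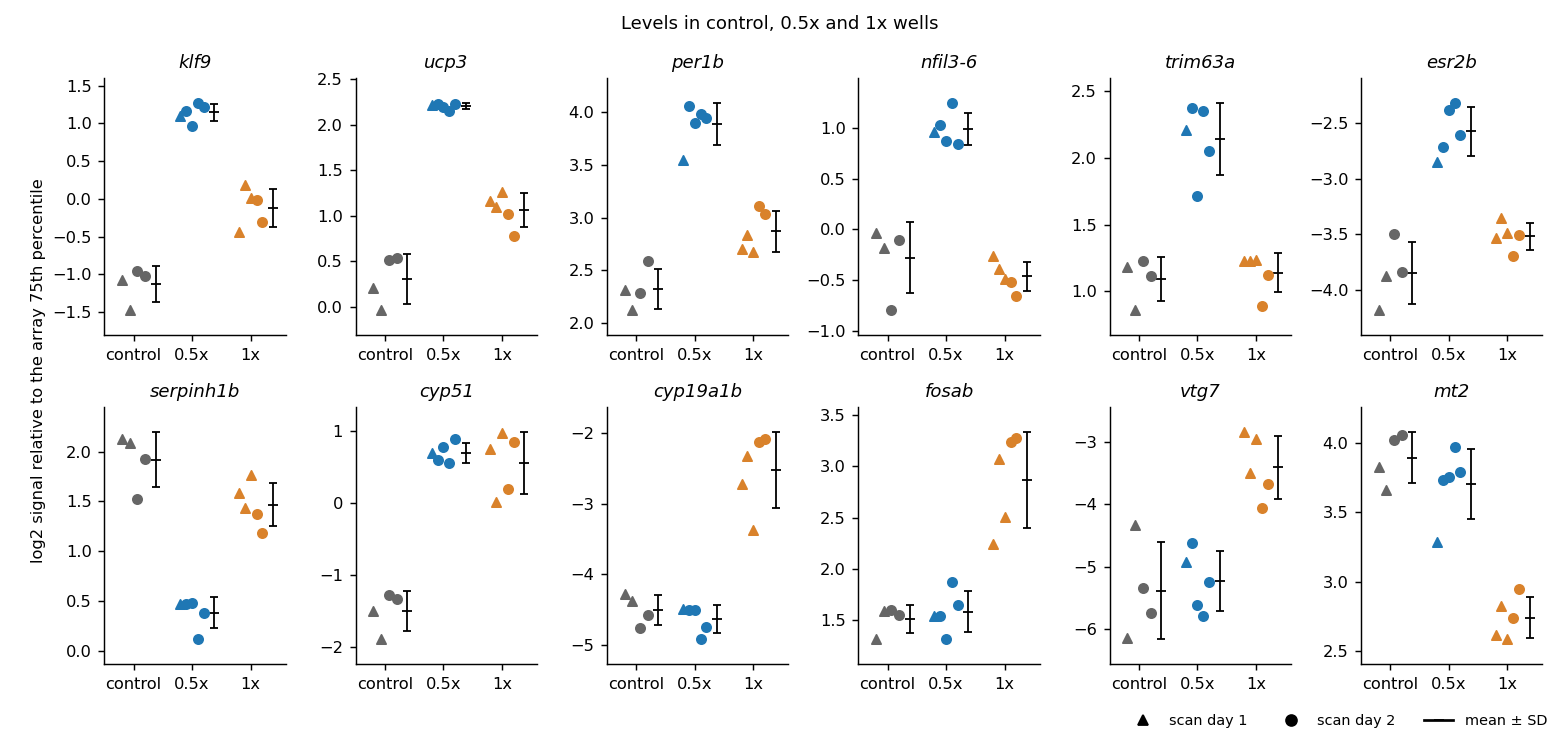
Log2 signal relative to the array's 75th percentile (y axes, a different range in each panel) for 12 genes in 4 control, 5 0.5x and 5 1x arrays, with mean ± SD, triangles for scan day 1 and circles for scan day 2. The 0.5x arrays are the highest group for klf9 (0.97 to 1.27) and ucp3 (2.15 to 2.23) and the lowest for serpinh1b (0.11 to 0.48), whereas for cyp19a1b, fosab and mt2 the 1x arrays stand apart from both other groups.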

How the data were processed

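RNA of pooled whole larvae was labelled with Cy3 and hybridised to 1-colour Agilent arrays, per the labels' protocols. The authors deposited scanner output of Feature Extraction 10.7.3.1, whose processed signal is a linear intensity with background and spatial trends already subtracted, per the file headers. A matrix of log2 values (36346 probes), deposited by the authors with no account of its normalization in the sources used here, served as an alternative only.

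Each array held 43803 spots for 43603 probes. Outlier spots (41 over 9 arrays) were left out, 0 were saturated, and spots of a probe were averaged. The log2 signal less the array's 75th percentile was fitted with limma 3.58.1 in R 4.3.3 (lmFit, eBayes, two-sided, Benjamini-Hochberg adjustment over 37868 probes that passed the background on 4 or more arrays of the control or 0.5x group). The median standard error was 0.169. On simulated data for this comparison (37868 probes), 68% of changes of log2 size 1 and 96% of size 2 were recovered. The simulated noise was independent between probes and arrays, with no slide or scan day differences. These shares therefore check the fit and do not give the recovery to be had on the real arrays. Gene names came from accessions matched to the GRCz12tu gene table (25978 probes), and a gene with several probes was given by the brightest kept one.

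Named genes were taken by a rule: the 12 largest rises and falls above background without overlap, up to 4 lower bounds in each direction, the 2 largest called members of each of 41 gene lists (or the 1 with the smallest p), and a set of sentinels. The rule gave 110 genes, and not all of them are named here. The called ones left unnamed all lost their call within scan day 2. Of the 119 genes named, 29 fall outside the rule and were chosen after their values were seen. The gene bnip3 is given as the only fall of its list and is outside all counts of named genes. The members, lists and rule were chosen with earlier results of these data known, so counts on a list are descriptions. One gene was left out of the lists and is not reported here. Groups came from the labels. Replicate numbers were not taken to pair the samples. Same-numbered arrays correlated at -0.07, -0.08, 0.12 and 0.30 in their deviations from group means, and other pairs at -0.31 to 0.35. These deviations also hold the difference between scan days, so they cannot decide whether the numbers pair the samples. The normexp alternative used median signals (offset 50), since the files hold no mean signal column.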

Additional observations from a re-analysis of the deposited data

Results flagged for a closer look

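Among 238 sets of 4 or 5 arrays (each named gene in each group), 20 had 1 array far from the others by Dixon's test at its 95% level, which chance alone gives in about 1 of 20 sets. In 0.5x replicate 1, the only 0.5x array of scan day 1, the log2 signal was the highest of its group for isg15 (1.01, others -1.81 to -1.04), mpx (-0.70, others -1.64 to -1.48), pck1 (2.89, others 1.73 to 1.94) and cry1b (-1.39, others -2.23 to -2.06). In the same array it was the lowest for rnf34b (-1.90, others -1.15 to -1.08), g6pc1a.2 (4.38, others 4.83 to 5.00), rho (7.14, others 7.51 to 7.65), ache (-0.23, others 0.46 to 0.72) and esr1 (-4.17, others -3.78 to -3.67). Without 0.5x replicate 1 the calls of pck1, cry1b, rnf34b and g6pc1a.2 were kept.

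In 0.5x replicate 2, zgc:113625 was the highest (-2.35, others -3.84 to -3.45) and spaw the lowest (-5.74, others -5.10 to -4.87). In 0.5x replicate 4 serpinh1b was the lowest (0.11, others 0.38 to 0.48), and in 0.5x replicate 5 cry3b was the highest (-4.72, others -5.63 to -5.38). Among controls, replicate 4 was the lowest for acod1 (-4.26, others -3.27 to -3.07) and illr4 (-4.78, others -4.17 to -4.07). Control replicate 2 was the lowest for klf2a (1.40, others 2.54 to 2.65) and nr4a1 (0.43, others 0.66 to 0.71), and control replicate 1 for fosab (1.31, others 1.56 to 1.60) and zgc:171686 (-7.79, others -6.68 to -6.64). In control replicate 3 hsd17b7 was the highest (-2.21, others -2.54 to -2.51). The part of single arrays in these results was not tested beyond leaving each out in turn.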

How the results depend on the processing

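The number of probes called between 0.5x and control was 588 with normexp, 3680 with all 14 arrays in the fit, 16675 with array weights, 685 with slide as a block, 4329 within scan day 1, 660 within scan day 2 and 82 within slide 4. It was 404 with a fold of at least 2 asked as well, and 336 without control replicates 1 and 2, an alternative chosen after seeing the data. With 1 array left out in turn it ran from 349 to 4659. Between 1x and 0.5x the count was 3227 with those 10 arrays only and 936 with slide as a block. A fit with the replicate number as a block called 167 probes (114 higher, 53 lower). That fit left out 0.5x replicate 5. The labels do not say whether wells of the same number shared a clutch, and what lies behind the lower count was not tested. Of the 90 called genes named in the text, 54 were not called in it. Quantile normalization, median centring, both filters on dim probes, scan day as a block and the deposited matrix left the count within 1.5 times of 1199 (849 to 1695). The probes called were not all the same: the deposited matrix shared 742 of the 1199. Among called genes named here, it lost the call of 34, and the fit with no filter on dim probes that of 15. Scan day as a block lost 7, quantile normalization 6 and median centring 3. With normexp 16 kept their sign and lost their call. Of the named genes, the sign was turned in 1 case: zgc:171686 was at -0.0241 with normexp. The cause of these changes was not tested, and the fits within days or slides hold fewer arrays. Within scan day 2 and with slide as a block alike, the call was lost for acod1, alas1, arnt, ccdc40, cebpd, cry3b, cyp1c1, dhx58, ebp, gadd45bb, hsd17b7, irf1b, lss, mgst1.1, nqo1, nr1i2, plac8.1, pth1b, rela, sc5d, sox9a, tapbp.2, tdo2a, tdo2b, trim63b, trpm1a, ugt5a2, zgc:113625, zgc:171686 and zp3a.2. It was lost only within scan day 2, of these 2 fits, for dmrt1, hsd11b2, illr4, klf2a, klhl5, mhc1uba, si:dkey-83f18.10, socs1a, sqlea, trim63a and zgc:165604, and only with slide as a block for cyp2x9 and ugt5a4. Of the 90 genes, 49 kept their call whichever array was left out.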
